A study of Drosophila melanogaster with 2 samples.

Results

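The peaks described here are sites called as bound by GFP-tagged Apterous that lie inside genes, in introns, a short way from a start of transcription but outside the promoter itself. Apterous, the protein made from ap, belongs to the LIM homeodomain family of transcription factors, sets dorsal identity in the fly wing and acts in the fates of some muscles and neurons. It was mapped by chromatin immunoprecipitation and sequencing with an antibody to GFP, in whole Drosophila melanogaster embryos aged 0 to 24 h that carried an insertion expressing Ap fused to eGFP. There was 1 group, with replicates 1 and 2, called biological in the labels. Both carried the tagged protein, and no untagged or mock sample was analysed here. Whether the authors' signal was computed against a control library is not stated for the peak lists. The chromatin came from whole embryos, so every signal mixes all embryonic cell types, and the antibody recognises the fusion and not untagged Ap.

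A peak was counted as near-intronic when its summit, the position of highest signal, lay inside an annotated gene and in no exon, more than 500 bp from every annotated start site and at most 3000 bp from the nearest start site of a protein-coding gene. The rule uses position alone. Of 3184 peaks in the conservative list on the assembled chromosomes, 634 met it. The remaining peaks were 1346 promoter peaks (summit within 500 bp of a start), 628 deep intronic peaks (over 3000 bp from a protein-coding start), 476 intergenic peaks and 100 exonic peaks. Just inside the inner bound lay peaks at Ogdh (501 bp, signal 112) and S6KL (504 bp, 53.0), and just outside it peaks in introns at CG43736 (495 bp, 144) and omd (494 bp, 111). At the outer bound, SNF4Agamma (2998 bp, 53.7) and Mnt (2991 bp, 85.4) were just inside, and jim (3003 bp, 6.55) and sbb (3038 bp, 81.4) just outside.

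Introns are removed from the transcript, but their DNA often holds enhancers and additional promoters. In flies the first intron is commonly the longest and a frequent place for such elements, and many genes have several start sites, so an intron of a long transcript can lie just upstream of the start of a shorter one. LIM homeodomain proteins bind DNA at sites with the core TAATTA.

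The sequences of the strongest sites are shown first, because the later results on base composition and on TAATTA rest on windows of this kind. Each is RefSeq's reference sequence of dm6 on the plus strand, read 5′ to 3′, with 50 bp on each side of the summit, at 11 of the near-intronic peaks of highest pooled signal on the arms shown. Capitals mark TAATTA or TATCGATA, and all other bases are in lower case.
CG11050, chr2L:6612661-6612761: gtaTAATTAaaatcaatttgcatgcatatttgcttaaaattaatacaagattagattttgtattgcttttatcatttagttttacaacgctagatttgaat
ph-p, chrX:2137313-2137413: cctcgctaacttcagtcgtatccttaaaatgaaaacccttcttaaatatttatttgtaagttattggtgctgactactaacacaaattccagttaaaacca
Tlk, chrX:3742171-3742271: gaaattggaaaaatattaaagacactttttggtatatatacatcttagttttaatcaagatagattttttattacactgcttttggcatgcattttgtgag
CG32772, chrX:4910307-4910407: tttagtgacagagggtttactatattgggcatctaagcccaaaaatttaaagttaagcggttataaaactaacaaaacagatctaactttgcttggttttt
CG3726, chrX:5918869-5918969: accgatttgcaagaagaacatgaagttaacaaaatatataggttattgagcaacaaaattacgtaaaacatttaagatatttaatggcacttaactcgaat
chif, chr2L:16351159-16351259: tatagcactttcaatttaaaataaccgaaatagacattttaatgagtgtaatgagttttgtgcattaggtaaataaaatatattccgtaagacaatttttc
norpA, chrX:4324933-4325033: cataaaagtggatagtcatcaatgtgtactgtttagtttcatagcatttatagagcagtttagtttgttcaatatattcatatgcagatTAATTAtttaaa
CG9837, chr3R:8811627-8811727: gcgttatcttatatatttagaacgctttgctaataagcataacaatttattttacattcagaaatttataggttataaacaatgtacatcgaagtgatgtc
LPCAT, chrX:9579240-9579340: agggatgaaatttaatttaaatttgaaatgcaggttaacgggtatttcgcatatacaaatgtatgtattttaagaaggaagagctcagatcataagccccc
Trl, chr3L:14759453-14759553: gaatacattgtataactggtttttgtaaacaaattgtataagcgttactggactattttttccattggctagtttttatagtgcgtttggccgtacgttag
mub, chr3L:21880447-21880547: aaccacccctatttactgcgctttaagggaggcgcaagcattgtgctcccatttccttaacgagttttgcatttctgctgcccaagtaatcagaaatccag

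Of these 11 windows, those at CG11050 and norpA held TAATTA. The site began 47 bp before the summit at CG11050 and 39 bp after it at norpA, so in neither was it central. The windows were rich in A and T, with a GC content of 21.8% at CG11050, 25.7% at Tlk and norpA and 32.7% at ph-p, while mub stood higher at 46.5%. Further windows are shown because they carry one of the motifs tested: TAATTA at NFAT and mol, and TATCGATA, the DNA replication-related element (DRE) bound by DREF and BEAF-32, at Stt3A and Rip11.
NFAT, chrX:13640466-13640566: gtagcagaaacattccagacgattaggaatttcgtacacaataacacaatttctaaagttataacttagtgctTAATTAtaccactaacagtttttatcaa
mol, chr2L:14995987-14996087: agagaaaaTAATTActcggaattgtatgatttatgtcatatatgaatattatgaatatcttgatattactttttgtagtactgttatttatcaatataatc
Stt3A, chrX:21053237-21053337: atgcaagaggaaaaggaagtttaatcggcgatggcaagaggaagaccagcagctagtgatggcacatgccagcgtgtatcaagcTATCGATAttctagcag
Rip11, chrX:18645182-18645282: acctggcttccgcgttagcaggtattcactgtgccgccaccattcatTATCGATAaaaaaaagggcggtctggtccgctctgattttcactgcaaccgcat

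The near-intronic location was taken up by conservative peaks about 2 times as often as by weaker ones. Near introns held 19.9% of conservative summits, or 634 of 3184, with an exact binomial 95% interval from 18.5 to 21.3, against 14535 of 135803 candidate peaks, 10.7%, which are peaks of the same ranked list that overlap no thresholded peak. The odds ratio was 2.07 (two-sided Fisher's exact test, Benjamini-Hochberg adjusted over 5 location classes, p = 7.98e-51). Against the 3184 strongest candidates alone, 14.9% of which were near-intronic, it was 1.42 (Fisher's exact test, adjusted p = 1.77e-07). Deep introns showed the opposite, with 19.7% of conservative summits against 28.3% of candidates (odds ratio 0.624, Fisher's exact test, adjusted p = 6.53e-28). Fisher's exact tests throughout treat peaks as independent, which neighbouring peaks are not.

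The 634 peaks sat mostly in first introns. The summit lay in the first intron of at least 1 annotated transcript at 511 of 634 peaks, 80.6% (exact binomial 95% interval 77.3 to 83.6), against 64.2% of the 14535 candidate peaks that met the same positional rule (odds ratio 2.31, two-sided Fisher's exact test, Benjamini-Hochberg adjusted over 4 position features, p = 5.30e-18). The nearest protein-coding start belonged to a gene that itself held the summit at 553 peaks, 87.2%, against 76.5% of those candidates (odds ratio 2.10, Fisher's exact test, adjusted p = 6.20e-11). Both differences were smaller against the 634 strongest of those candidates, of which 73.7% lay in a first intron (odds ratio 1.49, Fisher's exact test, adjusted p = 0.0107) and 81.4% had their nearest start in a gene that held them (1.56, adjusted p = 0.0107). The shortest annotated intron around the summit, of the nearest gene where it had one, had a median length of 6565 bp, with quartiles of 2853 and 13395 bp. At CG11050 that intron was the second of the gene and only 140 bp long, so the peak there is wider than the intron.

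Summits thinned out with distance from the start faster than the candidates did. Within 1000 bp of the nearest start lay 35.5% of summits, or 225 of 634, with an exact binomial 95% interval from 31.8 to 39.4, against 24.3% of candidates under the same rule (odds ratio 1.72, Fisher's exact test, adjusted p = 1.04e-09). The median distance was 1290 bp against 1576 bp in the candidates. On the upstream side the excess was concentrated next to the promoter, where the range from 500 to 750 bp upstream held 10.6% of near-intronic peaks and 4.60% of candidates. The same range downstream held 10.1% of near-intronic peaks and 7.50% of candidates. Taken by side, 371 summits lay in their own gene and downstream of its nearest start, and 182 lay in their own gene but upstream of its nearest start. The remaining 81 were nearest to a start of a gene that did not hold them. The share downstream of the nearest start was 61.5%, against 65.8% of candidates (odds ratio 0.831, Fisher's exact test, adjusted p = 0.0293), and this difference did not pass under 5 of the 12 alternatives tried.

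**Figure D1:**
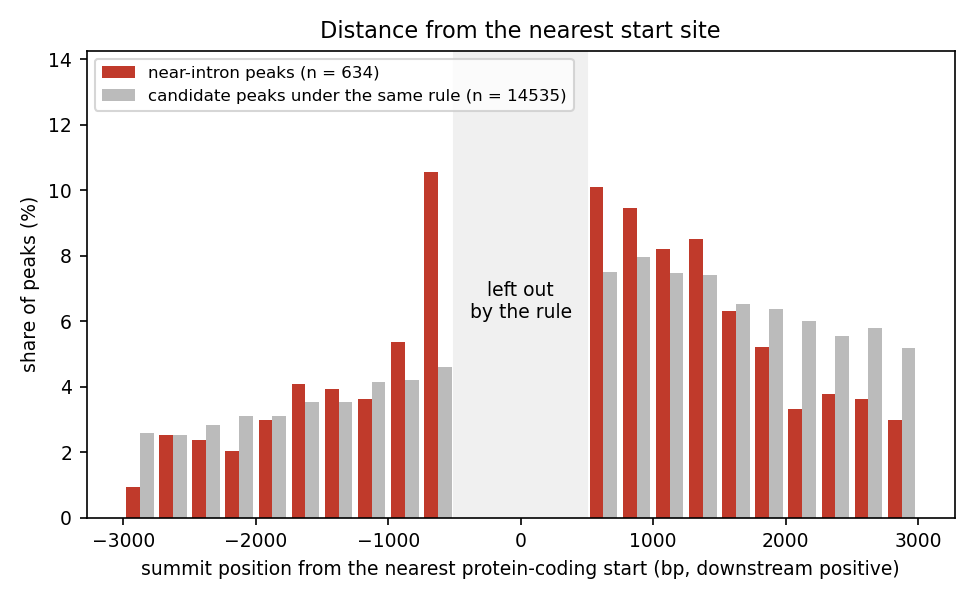
Share of peaks (%) in bins of 250 bp by the position of the summit from the nearest protein-coding start, negative upstream and positive downstream, for 634 near-intronic peaks (red) and 14535 candidate peaks under the same rule (grey); the shaded range is left out by the rule. The bin next to the promoter on the upstream side holds 10.6% of near-intronic peaks and 4.60% of candidates.

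In strength the near-intronic peaks stood between promoter peaks and the other distal classes. The pooled signal, the authors' value per peak, had a median of 92.5 over the 634 peaks, with quartiles of 66.8 and 142 and a highest value of 1266. The median was 86.1 in deep introns, 109 at promoters and 81.5 in intergenic sequence. Above the median of all conservative peaks, 93.5, lay 314 of 634 near-intronic peaks, 49.5% (exact binomial 95% interval 45.6 to 53.5), beside 50% of all 3184 by construction. That share was 43.2% in deep introns (odds ratio 1.29, two-sided Fisher's exact test, Benjamini-Hochberg adjusted over 3 comparisons, p = 0.0240), 58.6% at promoters (0.693, p = 2.96e-04) and 38.2% in intergenic sequence (1.59, p = 2.96e-04). Against deep introns the difference was small, and with an inner bound of 750 bp it did not pass (odds ratio 1.16, Fisher's exact test, adjusted p = 0.227). It also did not pass without replicate 2 (odds ratio 1.34, Fisher's exact test, adjusted p = 0.0705). Against intergenic peaks the difference did not pass without replicate 1 (1.34, Fisher's exact test, adjusted p = 0.0650) or without replicate 2 (1.31, adjusted p = 0.103).

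**Figure D2:**
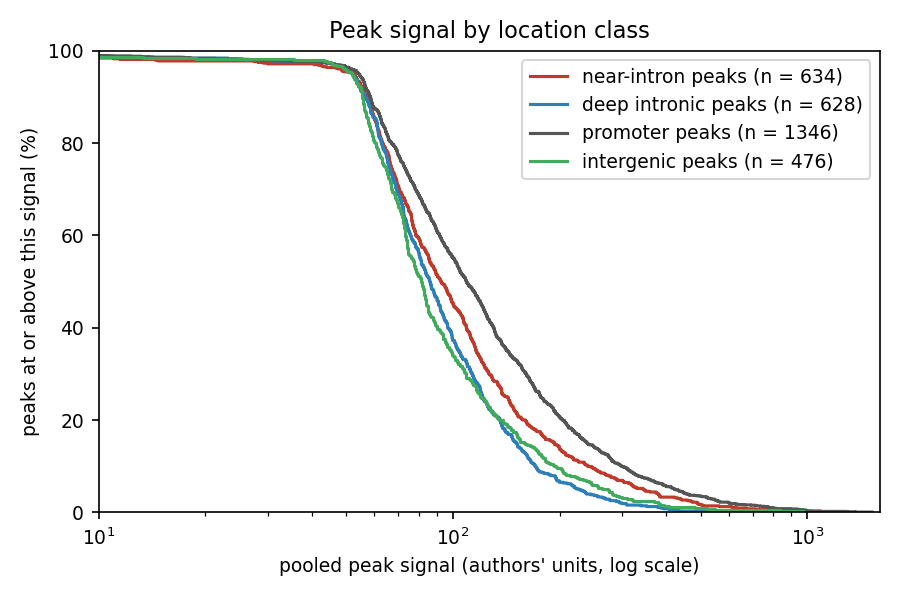
Share of peaks (%) at or above each pooled signal (authors' units, log scale) for near-intronic, deep intronic, promoter and intergenic peaks of the conservative list. The near-intronic curve, median 92.5, runs between that of deep introns (86.1) and that of promoters (109).

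The conservative list keeps peaks that are reproducible between the replicates, so the likeness of the replicates at these sites is partly set by that choice and is given as a description. Each site took, in each replicate, the top signal of the overlapping peaks that the replicate's ranked list holds, and both replicates had one at 626 of the 634 sites. On the log2 scale, replicate 1 over replicate 2 averaged -0.00 with an SD of 0.41 over the 626, beside SDs of 0.44 in deep introns, 0.43 at promoters and 0.41 in intergenic sequence. The ratio spanned -1.25 to 1.23, and was within 2-fold at 616 peaks (98.4%). Replicate 1 was higher at 304 of the 626, so neither replicate was generally the higher one here, on a scale that the authors do not state. Thresholded peaks of both replicates overlapped 308 of 634 near-intronic peaks, 48.6% (exact binomial 95% interval 44.6 to 52.5), near the 48.1% of all conservative peaks. That share was 40.4% in deep introns (odds ratio 1.39, two-sided Fisher's exact test, Benjamini-Hochberg adjusted over 3 comparisons, p = 0.00388), 56.8% at promoters (0.720, p = 0.00107) and 35.7% in intergenic sequence (1.70, p = 5.45e-05). Among peaks above the median signal none of the 3 differences passed, with 87.6% of near-intronic peaks against 83.0% in deep introns, 89.5% at promoters and 84.1% in intergenic sequence (Fisher's exact test, adjusted p = 0.382, 0.395 and 0.395). No thresholded peak of either replicate overlapped 183 of the 634 (28.9%), though each of the 634 overlapped a ranked peak of at least 1 replicate. The share in neither list was not counted over all conservative peaks, so the 28.9% is not given as a trait of this class.

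**Figure D3:**
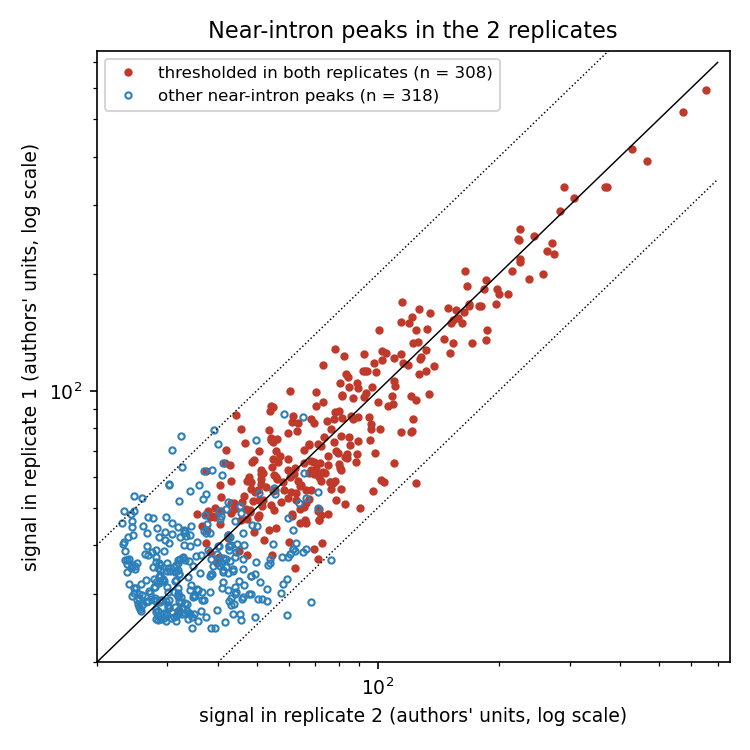
Signal in replicate 1 (vertical) against replicate 2 (horizontal), both in the authors' units on log scales, for the 626 near-intronic peaks with a value in both; filled points are the 308 peaks thresholded in both replicates, the solid line marks equal signals and the dotted lines 2-fold differences. Of the 626 points, 616 lie between the dotted lines.

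The genes at the strongest near-intronic sites included regulators of chromatin, transcription and signalling as well as genes of other roles. At CG11050 the signal was 595 in replicate 1 and 654 in replicate 2 (pooled 1266; 2L, 6612562 to 6612851; summit 1024 bp downstream of the start). At ph-p, which encodes a subunit of Polycomb repressive complex, it was 522 and 573 (pooled 1091; X, 2137222 to 2137496), with the summit in the first intron of a longer transcript and 508 bp upstream of the nearest start. HmgZ, an HMG box chromatin protein gene, had 420 and 428 at a summit 564 bp upstream of its nearest start (pooled 862; 2R, 21703210 to 21703599), where the gene HmgD also spans the site. These sites repeated closely, and the differences between replicates were small next to the spread of signals among the 634 peaks.

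Tlk, the tousled-like kinase gene, had 389 in replicate 1 and 467 in replicate 2 (pooled 862; X, 3742088 to 3742328), 2324 bp into the gene from the nearest start. Adf1, which encodes a transcription factor of the MADF family, had 335 and 372 (pooled 672; 2R, 6662949 to 6663194) at 763 bp downstream. Trl, the gene of the GAGA factor, had 228 and 263 (pooled 489; 3L, 14759394 to 14759646) at 1541 bp upstream of its nearest start and within an intron of its own longer transcripts. In each of these 3 genes replicate 2 was the higher one, as it was at 16 of the 24 strongest peaks with both values.

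Another strong site lay in chif, which encodes a Dbf4-like replication factor (290 in replicate 1 and 285 in replicate 2). norpA, the phospholipase C of phototransduction, had 225 and 275, and LPCAT, a lysophosphatidylcholine acyltransferase gene, 262 and 226. The RNA-binding protein gene mub had 244 and 224, and the transcription factor gene NFAT 246 and 224. Raf, the kinase between Ras and MAP kinase signalling, had 200 and 257, and ImpL2, a secreted protein that binds insulin-like peptides, 214 and 226. edl, an inhibitor and modulator of ETS factors, had 192 and 186, and CHES-1-like, a forkhead gene, 218 and 225. Also among the 25 strongest were CG32772, CG3726, CG12769, CG9837, Reph, CG31635, CG32264, CG32767 and CG9663, with pooled signals from 381 to 711. At CG9663 replicate 1 had 178, and replicate 2's ranked list as used here held no overlapping peak.

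Replicate 1 over replicate 2, on the log2 scale, spanned -0.36 to 0.21 in the 24 of these peaks with both values. A first intron held 22 of the 25 summits, and every one of the 25 had its nearest start in a gene that held the summit. Among the 100 strongest peaks of the whole conservative list, 21 were near-intronic.

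**Figure D4:**
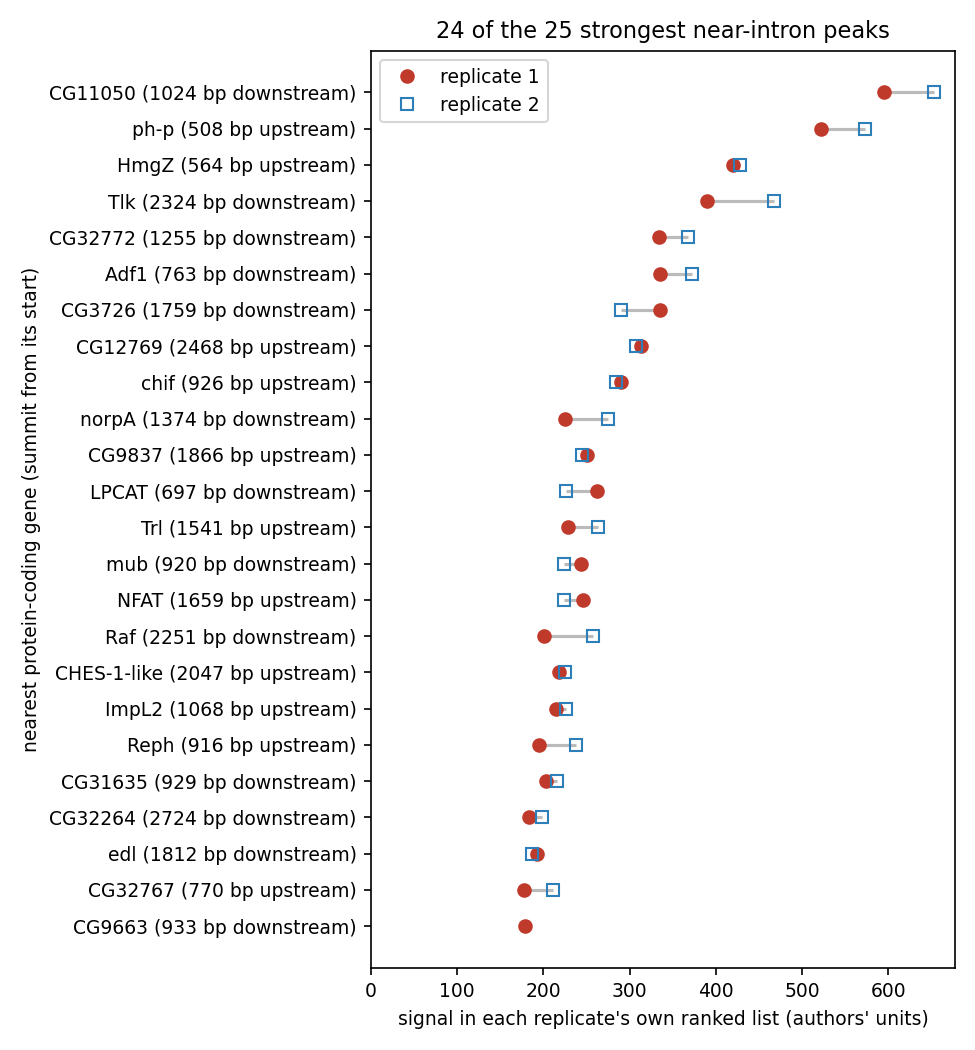
Signal in replicate 1 (filled circles) and replicate 2 (open squares), in the authors' units, at 24 of the 25 near-intronic peaks of highest pooled signal, each row named by the nearest protein-coding gene with the summit's distance from its start. The values run from 595 and 654 at CG11050 down to 178 in replicate 1 at CG9663, which has no replicate 2 value.

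The 634 peaks were spread over 485 nearest protein-coding genes, 3.47% of the 13968 annotated. Of these genes 392 had 1 peak, 58 had 2 and 35 had 3 or more, the 35 together holding 126 peaks. CHES-1-like had 8, with pooled signals from 53.4 to 442 at 594 to 2723 bp from a start. The 2 strongest, 442 and 375, were far above the next one, 109, and 3 of the 8 met thresholded peaks of both replicates. shn, the zinc finger gene of Dpp signalling, had 7, from 11.5 to 330, of which 2 overlap each other. Tlk had 6, from 49.2 to 862, NFAT 5, from 40.6 to 470, and CG43658 5, from 60.5 to 115. At CHES-1-like, Tlk, shn and NFAT the strongest site stood well above the median of the gene's own peaks, while at CG43658 the signals lay close together.

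With 4 peaks each followed CG13917, CG32264, CG42258, Shrm and Svil. Those with 3 each included CBP, CG10543, CG14505, Diap1, Doa, Fim, Irk1, Mnt, Mrtf, SNF4Agamma, Src64B, Tpr2, Trl, apt, cpo, dlg1, mbc, ph-p, shep, tou, trbl, unc-119, ush and wake. Among them Diap1 encodes an inhibitor of apoptosis, Doa a LAMMER kinase, dlg1 a scaffold of septate junctions and synapses, mbc a Rac activator needed for myoblast fusion, and Mrtf a cofactor of serum response factor. Their highest pooled signals ran from 66.2 at trbl to 1091 at ph-p. In all, 34 of the 634 peaks overlapped another conservative peak, and these were weak, with a median signal of 29.6. Overlaps of this kind were not counted in the other classes.

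Several signalling genes were the nearest gene of a peak. For the gene lists from here on, genes with introns that could meet the positional rule were not counted. This holds for the lists and for all protein-coding genes, so the shares are a description and enrichment was not tested. Among Dpp and Activin genes, 5 of 20 had a near-intronic peak, beside the 3.47% of all protein-coding genes. They were shn (159 in replicate 1 and 163 in replicate 2), the Smad gene Mad (150 and 114), the type II receptor gene wit (pooled 148), brk, a repressor of Dpp targets (37.9 and 54.6), and the receptor gene tkv (34.8 and 43.6). The brk summit lay in an intron of CG1677 and not in brk. At wit replicate 2 was the higher one, with a log2 ratio of replicate 1 over replicate 2 of -0.85, while the replicates were closer at shn and Mad.

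Among receptor kinase, Raf and ETS genes, 6 of 30 had one. Beside Raf these were the ETS repressor gene aop (118 in replicate 1 and 115 in replicate 2), the insulin receptor gene InR (127 and 103), the FGF gene ths (94.9 and 125), sty, which encodes the inhibitor Sprouty (91.1 and 54.9), and the ETS activator gene pnt (32.4 and 31.3). All but pnt were thresholded in both replicates. Among Hedgehog and Wingless genes, 5 of 25 had one, all with pooled signals of 146 or less. They were Wnt5 (78.6 and 62.9, in an intron of Ggt-1), the antagonist nkd (53.5 and 46.5), the Hedgehog receptor gene ptc (37.4 and 44.1), the kinase gene sgg (26.7 and 43.8) and the glypican gene dlp (37.3 and 28.2).

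Neuronal RNA-binding protein genes had the highest share of the lists given here, 8 of 23. After mub came ps, the Nova-type splicing factor gene (98.4 in replicate 1 and 93.5 in replicate 2), shep (65.7 and 88.2) and bru2 (36.0 and 53.9), with elav, pum, Rbfox1 and Rbp9 lower, at pooled signals from 67.1 to 89.4. These lists were made with results of these data known, so their shares are given as a description.

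The lists that follow here had 3 genes with a peak or fewer. Where any gene had one, the shares ran from 1.16% (cytosolic ribosomal proteins) to 20% (GATA and odd-skipped factors), beside the 3.47% of all protein-coding genes. Of Polycomb and Trithorax group genes 3 of 26 had one (ph-p, Trl and psq), and of insulator and architectural protein genes 1 of 14 (Trl again). GATA and odd-skipped factors had 2 of 10, ush (112 in replicate 1 and 92.9 in replicate 2) and bowl (88.7 and 80.1). Neuronal timing and fate factors had 3 of 28, led by brat (149 and 162) and grh (80.0 and 96.3), and ecdysone response genes 3 of 26, led by tai (86.1 and 85.7). Hippo and growth genes had 3 of 21 (InR, kibra and wts), muscle structure genes 3 of 20, led by Msp300 (121 and 127), and muscle and heart identity genes 1 of 25, zfh1 (37.0 and 71.1). Notch pathway genes had 1 of 20, neur (121 and 110), axon guidance and adhesion genes 1 of 38, Ten-a (72.2 and 72.1), and forkhead genes 1 of 17, CHES-1-like.

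Hox genes had 1 of 10, Abd-B (40.8 in replicate 1 and 35.5 in replicate 2), cyclic AMP and learning genes 1 of 20, CrebB (51.4 and 43.9), and circadian genes 1 of 11, sgg. Of 11 genes placed downstream of ap by genetics 1 had one, shot (44.9 and 34.3), and of 86 cytosolic ribosomal protein genes 1, RpLP2 (47.0 and 27.6), whose summit lay in an intron of Cdk4. No near-intronic peak was nearest to ap or to any of the 9 matched LIM homeodomain factors and cofactors, the 23 wing and appendage selectors, the 35 ion channel and synaptic genes, the 73 mitochondrial ribosomal protein genes or the 179 odorant, gustatory and ionotropic receptor genes. Only 3.47% of all protein-coding genes had such a peak, so an absence in a list of 9, 23 or 35 genes says little. For the longer lists, the genes with introns that could meet the positional rule were not counted. These absences are therefore given as a description, and depletion was not tested.

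A promoter peak at the same gene, here the nearest protein-coding gene, was more frequent beside near-intronic peaks than beside the other distal classes. That gene need not hold the peak. By the positional rule its start is closer to near-intronic than to deep intronic peaks, and intergenic peaks lie in no gene. How far the rule itself sets these differences was not tested. At 195 of 634 peaks, 30.8% (exact binomial 95% interval 27.2 to 34.5), the nearest protein-coding gene also had a conservative summit within 500 bp of one of its own starts. That share was 21.2% for deep intronic peaks (odds ratio 1.65, two-sided Fisher's exact test, Benjamini-Hochberg adjusted over 2 comparisons, p = 1.15e-04) and 10.1% for intergenic peaks (3.96, p = 4.12e-17). The difference from deep introns did not pass without replicate 2, where the odds ratio in replicate 1's own list was 1.06 (Fisher's exact test, adjusted p = 0.787), nor among peaks above the median signal (1.29, adjusted p = 0.312). Against intergenic peaks the odds ratio was 1.92 without replicate 2 (Fisher's exact test, adjusted p = 0.00818) and 2.42 among peaks above the median signal (adjusted p = 0.00654). At 158 of the 634 peaks, 24.9%, another conservative summit of any class lay within 1000 bp. This was not counted for the other classes or for all conservative peaks, so it is a description only.

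X held more of these peaks than of the others. Of the 634, 171 were on X, 27.0% (exact binomial 95% interval 23.6 to 30.6), against 17.6% of the 2550 other conservative peaks and 19.4% of all 3184 (odds ratio 1.73, two-sided Fisher's exact test, p = 2.21e-07). Candidates under the same positional rule had 20.6% on X, and the near-intronic peaks exceeded these too (odds ratio 1.42, Fisher's exact test, p = 1.77e-04), in a comparison chosen after seeing the data. Of the 25 strongest near-intronic peaks, 11 were on X, among them those at ph-p, Tlk, norpA, LPCAT, NFAT and Raf. The counts elsewhere were 88 on 2L, 105 on 2R, 138 on 3L and 132 on 3R, with none on 4 or Y. The share on X was 26.2% with an outer bound of 5000 bp and 26.6% with an inner bound of 300 bp. Whether it differs from that of deep intronic peaks alone was not tested. Peaks on X were partly clustered by gene: CHES-1-like (8 peaks), Tlk (6), NFAT (5) and CG43658 (5) are on X, while shn (7) is on 2R.

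The core site TAATTA was enriched at the summits over nearby sequence. Windows of 50 bp on each side held it at 68 of 634 peaks, 10.7% (exact binomial 95% interval 8.43 to 13.4), near the 11.4% of all conservative peaks, against 35 windows centred 1000 bp to the right, 5.52% (ratio 1.94, exact McNemar test, two-sided, Benjamini-Hochberg adjusted over 14 motifs, p = 0.00567). The adjusted p did not pass in replicate 1's own list (0.101) or replicate 2's (0.191), nor with the window to the left (0.157), in the less strict list (0.197) or among peaks above the median signal (0.0556), by the same exact McNemar test. At 3 peaks the site occurred more than once. Its share did not pass a test of difference from deep introns (12.7%, odds ratio 0.823, two-sided Fisher's exact test, Benjamini-Hochberg adjusted over 3 comparisons, p = 0.691), promoters (11.8%, 0.897, p = 0.691) or intergenic peaks (9.87%, 1.10, p = 0.691). Among the strongest peaks with it were CG11050, norpA, NFAT and mol, shown above, and Fili (pooled 253).

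Base composition also differed between summit and flanking windows. The summit windows had a GC content of 32.4% ± 8.38 (SD, n = 634) and the windows 1000 bp to the right 41.1% ± 9.89. The dip was narrow, with 43.9% in windows centred 200 bp to the left and 43.7% at 200 bp to the right. Its part in the motif counts was not tested. TAATTG was in 87 summit windows and 72 flanking ones (ratio 1.21, exact McNemar test, adjusted p = 0.496), and AAAAAAAA in 47 summit windows and 48 flanking ones. GC content below the median of all conservative windows, 30.7%, was found in 44.3% of near-intronic windows, beside 45.3% of all, and did not pass a test against deep introns, promoters or intergenic peaks (two-sided Fisher's exact test, adjusted p = 0.651, 0.102 and 0.146). The call depended on the window and the peaks used. With windows of 100 bp on each side it passed against promoters (odds ratio 0.721, Fisher's exact test, adjusted p = 0.00223), as it did among peaks above the median signal (0.720, adjusted p = 0.0486), and with windows of 25 bp it passed against intergenic peaks (1.49, adjusted p = 0.00387).

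**Figure D5:**
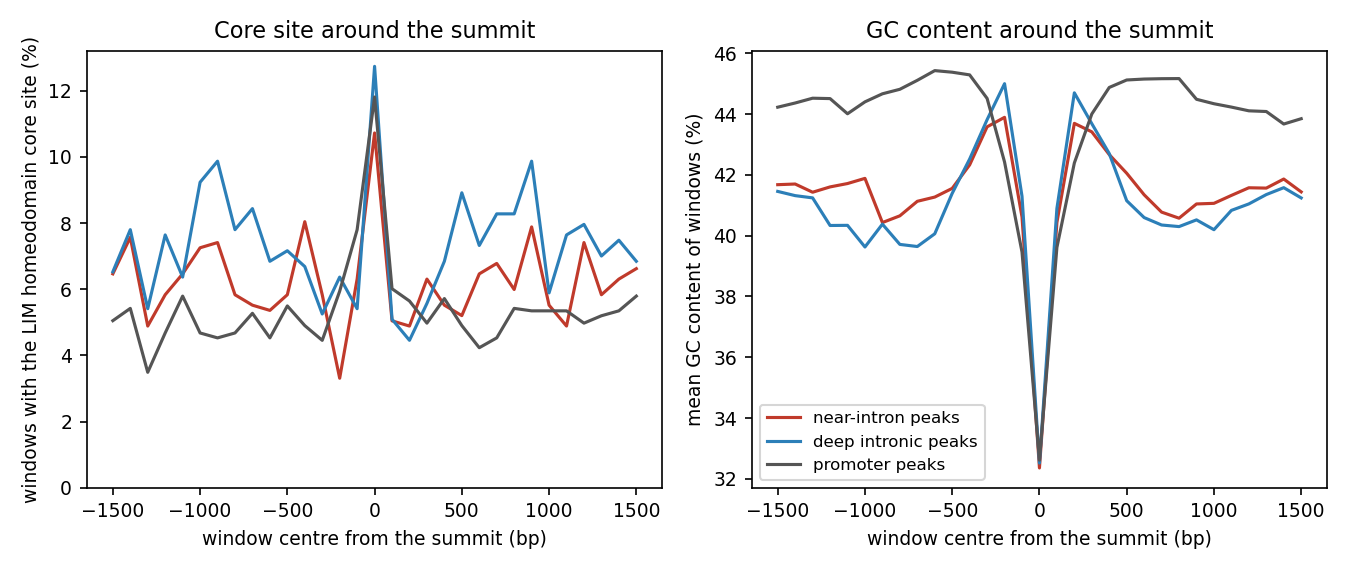
Share of windows of 101 bp with TAATTA (left, %) and their mean GC content (right, %) by the distance of the window's centre from the summit, for near-intronic, deep intronic and promoter peaks. At the summit the near-intronic windows have 10.7% with the site and 32.4% GC, against 5.52% and 41.1% at 1000 bp to the right, and the GC content at the summit is 32.5% in deep introns and 32.6% at promoters, against 40.2% and 44.3% at 1000 bp to the right.

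Of the repeats searched, GAGAGAG and CAGCAGCAG were rarer at the summits than in the windows 1000 bp to the right. For these repeats the flank to the left and the other alternatives were not compared. GAGAGAG, the repeat bound by the GAGA factor, was in 1 summit window and 19 flanking windows (ratio 0.0526, exact McNemar test, Benjamini-Hochberg adjusted over 14 motifs, p = 5.61e-04), and CAGCAGCAG in 0 and 8 (adjusted p = 0.0365). The count of 0 allows, by the exact binomial 95% interval, a share of up to 0.580%. TATCGATA was in 2 summit windows, those at Stt3A and Rip11 shown above, which were among the weaker peaks (pooled signals 57.7 and 14.7). That was 0.315% of near-intronic peaks, against 1.93% of promoter peaks (26 of 1346, odds ratio 0.161, two-sided Fisher's exact test, Benjamini-Hochberg adjusted over 14 motifs, p = 0.0479), a comparison chosen after seeing the data. The other motifs searched, on both strands, did not pass against the windows to the right. Of these AGATAA, which factors of the GATA family bind, was in 51 summit windows and 40 flanking ones, and CGATA, which TATCGATA contains, in 62 summit windows and 85 flanking ones. CATATG was in 33 summit windows and 24 flanking ones, CAGCTG in 18 summit windows and 23 flanking ones, and TAATCC in 17 summit windows and 18 flanking ones. The rarer motifs were CACACACA with 9 summit windows and 20 flanking ones, TGACTCA with 6 summit windows and 9 flanking ones, and CAGGTAG with 1 summit window and 2 flanking ones. A mobile element annotated by RefSeq held 1 of the 634 summits and 116 of the 14535 candidates.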

How the data were processed

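Anti-GFP ChIP-seq of 2 replicates of ap-eGFP embryos was deposited as 8 peak lists on dm6: a ranked and a thresholded list for each replicate, and 2 ranked, a conservative and a less strict list for both replicates pooled, per the deposited file descriptions. Fragments of 200 to 800 bp were used, per the labels. For the aligner and the caller, names were not given in the sources used. The signal per peak is the authors' value on a scale that is not stated and was compared across lists only as the ratio between the replicates. The score the authors deposited with each peak scales its irreproducible discovery rate and is 830 or more in the thresholded lists. The −log10 of that rate, also deposited by the authors, was not used for a result. No read totals are given, so depth is unknown, and exact (Clopper-Pearson) intervals cover counting of peaks only.

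Genes and exons came from Ensembl's annotation (BDGP6.54) without transposable elements, 18277 genes of which 13968 are protein-coding, and sequences from the RefSeq release of the same assembly. Left out were 17 conservative peaks on other scaffolds. Shared peaks overlap by at least 1 bp. The candidate peaks come from the pooled ranked list that holds all 3184 conservative peaks. Shares were compared with two-sided Fisher's exact tests, and summit with flanking windows by the exact McNemar test, with Benjamini-Hochberg adjustment within each family and a threshold of 0.05. The p-values rest on counts of peaks taken as independent and do not measure spread among animals.

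The members, gene lists and motifs were chosen with earlier results of these data known. The lists name 519 symbols, of which 26 matched no annotated gene and were left aside. Peaks named are the 25 strongest, those of genes with 3 or more, up to 4 per list, and the strongest with TAATTA or TATCGATA; further list members are named to complete short lists. Some items under this rule are not reported here. Alternatives were other lists, bounds, windows, overlaps, backgrounds and each replicate alone. Fisher's exact test was run on simulated independent counts, and the McNemar test on random windows with a planted motif. These lack the clustering of peaks and the base composition at summits, so they give no error rate for these data. Python 3.11.15, numpy 2.4.6, pandas 2.3.3, scipy 1.17.1, statsmodels 0.14.6 and matplotlib 3.10.9 were used.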

Additional observations from a re-analysis of the deposited data

How the results depend on the processing

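Over 21 results and 253 values under alternatives, 223 kept the direction and the side of the threshold. The near-intronic share, first introns, the same-gene start, closeness within 1000 bp, the X share, the weaker signal than at promoters and the promoter peaks against intergenic peaks kept both under every alternative run for them, though the odds ratios for first introns fell to 1.49 and for the near-intronic share to 1.42 against the strongest candidates, and that for promoter peaks against intergenic peaks to 1.92 without replicate 2. Fisher or McNemar values that did not are odds ratios or, for TAATTA at summits, ratios, and the cause was not tested. With promoter peaks counted up to 1000 bp from a start, or with an inner bound of 300 bp, a near-intronic peak could count as its own gene's promoter peak. The near-intronic shares there, 63.4% and 41.4%, were partly set by the rule and are no check on that result. They are nevertheless counted among the 223. So are the tests of TAATTA and GC against the other classes that kept their direction and, as in the main setting, did not pass. Among peaks above the median signal, the share in both replicates was 1.44 against deep introns, 1.34 against intergenic peaks and 0.829 against promoters, promoter peaks at the same gene 1.29 against deep introns, downstream position 0.840 and TAATTA at summits 2.12, none past the threshold, while GC below the median passed against promoters (0.720). Downstream position also missed it with bounds of 500 and 2000 bp (0.836), with 750 and 3000 bp (0.938), against the strongest candidates (0.814) and without overlapping peaks (0.848), the last chosen after seeing the data. TAATTA at summits missed it with the flank to the left (1.48) and in the less strict list (1.48). Signal against deep introns missed it with 750 and 3000 bp (1.16). GC against deep introns turned with 500 and 2000 bp (1.00), windows of 25 bp (1.14), without overlapping peaks (1.03) and without replicate 1 (1.04). GC passed against intergenic peaks with windows of 25 bp (1.49) and against promoters with windows of 100 bp (0.721), and turned against promoters with windows of 25 bp (1.04). TAATTA against deep introns turned with 500 and 5000 bp (1.02), and against intergenic peaks with windows of 100 bp (0.952) and 25 bp (0.942). With each replicate's own list in place of the pooled one, the values ran from 1.75 to 1.90 for TAATTA at summits, 1.06 to 2.05 for promoter peaks at the same gene against deep introns, 1.34 to 1.56 for signal against deep introns, 1.31 to 1.34 for signal against intergenic peaks and 0.930 to 1.04 for GC against deep introns. Depth is unknown, so what it limits was not tested. No paired analysis was possible because there is 1 group.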

Other observations

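Among the 14535 candidate peaks under the same positional rule, which overlap no thresholded peak in the lists used here, 22 had a score of 830 or more and 11 had a pooled signal above the median of the near-intronic peaks. The strongest lay at cbt (signal 1205, score 1000; 2L, 480959 to 481222; 1426 bp from the nearest start) and Lk6 (signal 971, score 1000; 3R, 11760922 to 11761167; 964 bp). Alh followed with 347, Kdm2 with 211 and Unc-115a with 183. At 8 near-intronic peaks a value was found in 1 replicate only: CG9663, trbl and a pair of overlapping peaks at pAbp in replicate 1, and sktl, CG15096, CG43658 and inaE in replicate 2. Apart from CG9663 their pooled signals were 69.4 or less.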
